A study of Sus scrofa with 27 samples.

Results

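The genes described here encode the machinery that separates chromosomes and divides the cell: the centromere and kinetochore, the spindle checkpoint, the chromosomal passenger complex, condensin and the regulators of sister cohesion, the mitotic kinesins, and the proteins of the spindle and of cytokinesis. They were chosen by symbol as 50 genes, and 48 of the 50 had an Ensembl identifier paired with the symbol and a mean count of at least 5. All 48 were among the 11385 named genes tested. KNL1, a kinetochore scaffold, and PTTG1, the securin that holds separase inactive, were not matched to an identifier and were not analysed here. The counts come from mural granulosa cells (GCs), the epithelial layer facing the follicular fluid. Laser capture microdissection took them from the largest healthy follicle of each of 27 first-parity sows, a cross of Large White and Norwegian Landrace, with 1 RNA-seq library per sow. The 13 full-fed (FF) sows were given a daily 6.5 kg of lactation feed, and the 14 feed-restricted (RES) sows a daily 3.25 kg, over the final 2 weeks before weaning. All sows had the same feeding after weaning, and the tissue was taken on day 2 post-weaning. According to the study's methods, the sequenced sows were selected from larger groups as those with the least (FF) and the most (RES) loss of body weight. Follicle size, which also differed between the diets in the study, was not analysed here, so diet, weight loss and follicle size cannot be told apart.

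In a dividing cell, each centromere, marked by the histone variant CENPA, carries a kinetochore whose NDC80 complex grips the spindle microtubules. Unattached kinetochores hold the spindle checkpoint on through MAD2L1 and BUB1B, until separase cuts cohesin and the sister chromatids part. Condensin and topoisomerase II compact and untangle the chromosomes beforehand, and kinesins, PRC1, ECT2, RACGAP1 and anillin build the central spindle and the cleavage furrow afterwards. Most of these transcripts accumulate in G2 and mitosis, so in bulk RNA they are read as markers of cycling cells. In such samples fewer or more cycling cells and less or more RNA per cell cannot be told apart. Mural GCs multiply while the antral follicle grows and leave the cell cycle as they luteinize.

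Many promoters of genes that peak in G2 and mitosis carry a short element named the cell cycle genes homology region (CHR, TTTGAA), which binds MuvB complexes, often beside CCAAT boxes, which bind NF-Y. The RefSeq windows of Sscrofa11.1 from 250 bases before to 50 bases after the annotated start were searched for both words on either strand. Matches of different words were counted separately even where they overlapped. The CHR word was found in 20 of the 50 windows (40.0%), compared with 14.0% of 19509 windows of all protein-coding genes. The CCAAT word was found in 33 of the 50 windows (66.0%), compared with 35.4%. Both words occurred together in 14 of the 50 (28%), compared with 5.54% of all windows. An E2F word, TTTGGCGC or TTTCGCGC, was found in 4 of the 50 (8.00%), compared with 1.16%. By group, the CHR word was in 6 of 14 centromere and kinetochore windows, 2 of 4 checkpoint windows, 2 of 5 windows of the passenger and CDCA genes, 3 of 11 windows of the condensin and cohesion genes, 4 of 9 kinesin windows and 3 of 7 spindle and cytokinesis windows. These are matches of letters, not bound sites.

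Of the 20 genes with a CHR word, 5 had it within the last 150 bases before the annotated start. The sequences of 4 of them, from at most 10 bases before the first marked word up to the start, are shown because they place the element relative to the start of genes whose counts are described below. CHR and CCAAT words are in capitals.

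RACGAP1, chr5:15894245-15894313, plus strand: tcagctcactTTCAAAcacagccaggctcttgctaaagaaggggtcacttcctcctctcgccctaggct
KIF20B, chr14:101512589-101512684, plus strand: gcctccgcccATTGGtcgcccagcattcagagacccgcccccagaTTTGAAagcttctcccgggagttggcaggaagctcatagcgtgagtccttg
ECT2, chr13:111248106-111248214, plus strand: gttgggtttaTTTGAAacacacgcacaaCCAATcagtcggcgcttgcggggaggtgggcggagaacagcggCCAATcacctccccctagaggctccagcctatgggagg
INCENP, chr2:9445826-9445942, minus strand: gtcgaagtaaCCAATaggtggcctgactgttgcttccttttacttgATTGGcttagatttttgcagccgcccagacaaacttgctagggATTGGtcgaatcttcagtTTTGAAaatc

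In 11 of the 20 genes, 1 of which also had the word in those 150 bases, a CHR word lay at or after the annotated start. The 30 bases around it are shown for the 5 with the largest fold changes among the rest of these, with the CHR word in capitals, on the strand of the gene. This choice was made after the positions had been seen.

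BIRC5, chr12:3755165-3755194, minus strand: cgcagcggccgcccaccgccggaTTTGAAt
CENPE, chr8:117888970-117888999, plus strand: agttccggaaatTTCAAAtttaaaggcggg
PRC1, chr7:55869769-55869798, plus strand: ctcctccgcctctgggttcggTTTGAAatt
CENPA, chr3:112272607-112272636, minus strand: ctggattcggttTTCAAAacacgccggcag
TOP2A, chr12:22001294-22001323, plus strand: gctggctgaaggTTCAAAcggaggggcagc

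The first set of genes includes those of the cytokinesis partners ECT2 and RACGAP1 and of the passenger scaffold INCENP. The second set holds the gene with the largest fold change of all 48, BIRC5. For RefSeq starts that are not the true start in GCs, the distances would shift.

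The depth of the FF libraries was 12299220 to 16021200 counts with a median of 13490513, and RES libraries held 12942198 to 18120922 counts with a median of 15232600. Values below are counts divided by DESeq2 size factors, called normalized counts, and fold changes are from edgeR's quasi-likelihood test with Benjamini-Hochberg adjustment over all 11385 genes. Cell type markers were summed per library as a check of the tissue. The 9 granulosa markers with an identifier summed to a median of 148337 normalized counts in FF (105032 to 180215) and 145172 in RES (88531 to 226679), and 0 of 9 were called by edgeR, with 1, INHBB, at an unadjusted p under 0.05. VCAN and SERPINE2 make up most of this sum. INHBB, an inhibin and activin subunit, had a median of 3622 in FF and 8254 in RES (log2 fold change 0.66, edgeR adjusted p = 0.0907), and was called in 1 of the 27 fits with 1 library left out, that without FF sow 10 (edgeR adjusted p = 0.00759), as well as with the replicate block (0.0428), with RIN, the RNA integrity number, as a covariate (0.0398), with voom and sample quality weights (0.00305) and in the upper of 2 read-quality sets described below (0.0124). SERPINE2 had a median of 53657 in FF and 39913 in RES (log2 fold change -0.34, edgeR adjusted p = 0.266), and was called with voom and sample quality weights (0.0235). AMH, at a median of 3.85 and 5.59, was called in the upper set (edgeR adjusted p = 0.0376). Endothelial markers summed to a median of 1663 in FF (1195 to 2405) and 1184 in RES (839 to 2365). Of these, 4 of 8 were called lower by edgeR, beside 666 of all 11385 genes tested. Smooth muscle and pericyte markers had medians of 4427 (2806 to 8173) and 3129 (1889 to 7948), with 2 of 7 called lower in RES. Theca markers had medians of 15171 (8205 to 27155) and 12939 (5501 to 31492), with 1 of 9 called lower. Immune markers had medians of 166 (87.4 to 435) and 121 (49.9 to 346), with 0 of 5 called. Erythroid markers had medians of 92.2 (35.5 to 1069.7) and 25.5 (9.63 to 147), with 1 of 2 called lower. Of 6 oocyte markers with an identifier, 5 had a median of 0. The part of these other cells in the differences below was not tested.

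Transcripts of the division machinery were higher in RES than in FF GCs throughout the list. All 48 genes had a positive log2 fold change, from 0.37 (BUB3) to 1.44 (BIRC5), with a median of 1.12, while the median over all 11385 genes was -0.02. The edgeR test called 46 of the 48, all higher in RES, beside 8.28% of all genes tested that were called higher. KIF14 and ZWINT did not pass. In 36 of the 48 genes the level more than doubled, that is, the fold change was above 2, which held with a call for 1.47% of all genes. In 42 of 48 genes every FF sow was exceeded by 7 or more of the 14 RES sows, beside 7.62% of all genes tested. The groups separated completely in 0 of the 48 genes, as in 0% of all genes. The spread among sows was large in both groups. The median SD of the log2 values was 0.78 in FF and 0.53 in RES for these genes, compared with 0.37 and 0.36 for all genes tested.

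**Figure D1:**
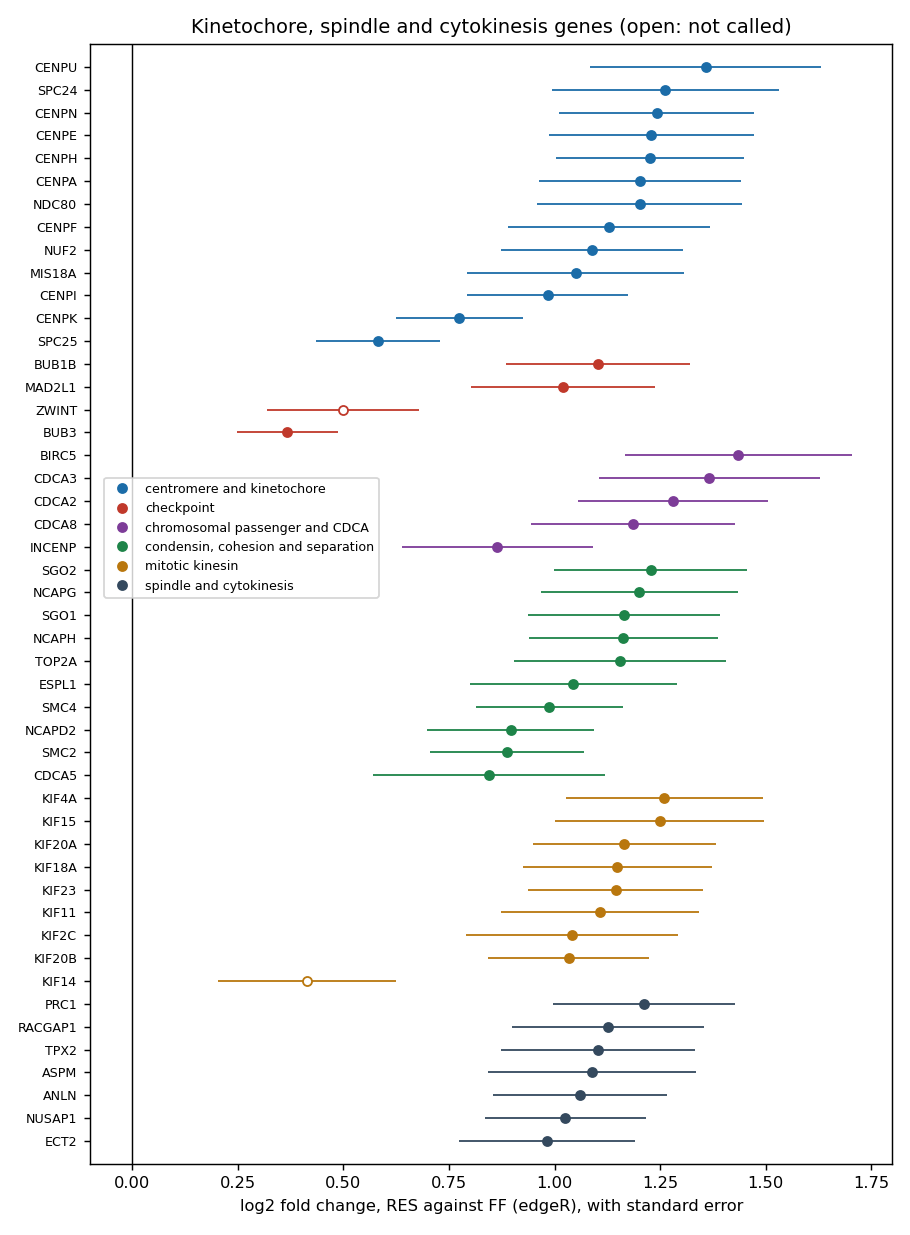
Log2 fold change of RES against FF with its standard error for each of the 48 genes (horizontal axis), sorted within 6 groups marked by colour; filled points were called by edgeR and open points were not. All points lie above 0, and BUB3, KIF14, ZWINT and SPC25 are the 4 lowest.

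The centromere and kinetochore genes rose as a block. All 13 measured members were called, with log2 fold changes of 0.58 to 1.36 and a median of 1.20. The largest belonged to CENPU (ENSSSCG00000015785, chr15:45818562-45851461), a subunit of the constitutive centromere network. Its normalized counts ran from 99.1 over a median of 324 to 582 in FF sows and from 121 over 726 to 1272 in RES sows. RES sow 7, at 121, lay among the lowest FF sows, and 10 of the 14 RES sows lay above all FF sows. The log2 fold change was 1.36 with a standard error (SE) of 0.27 (edgeR, adjusted p = 0.00212). CENPU shares exonic bases with PRIMPOL on the opposite strand, and the counting set no strand option, so its count is uncertain.

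CENPA, the histone that defines the centromere, ran from 26.9 over 156 to 292 normalized counts in FF and from 212 over 357 to 529 in RES. All 14 RES sows lay above the FF median, and the log2 fold change was 1.20 (SE 0.24, edgeR adjusted p = 0.00194). MIS18A, which primes centromeres for new CENPA, had a log2 fold change of 1.05 (SE 0.26). CENPE, the kinesin motor of the kinetochore, and CENPF, a large protein of its outer corona, were at 1.23 (SE 0.24) and 1.13 (SE 0.24). Among the inner kinetochore subunits CENPH, CENPI, CENPK and CENPN the values were 1.23, 0.98, 0.77 and 1.24.

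The 4 subunits of the NDC80 complex did not show equal values. NDC80, which binds the microtubule, ran from 153 over 627 to 1181 normalized counts in FF and from 524 over 1558 to 2482 in RES, with 11 of 14 RES sows above all FF sows. Its log2 fold change was 1.20 (SE 0.24, edgeR adjusted p = 0.00218), that of its partner NUF2 was 1.09 (SE 0.22) and that of SPC24, on the side of the chromosome, was 1.26 (SE 0.27). SPC25 (ENSSSCG00000015924, chr15:75339171-75371275), the partner of SPC24, had the smallest change of the kinetochore group. It ranged from 236 over 505 to 863 in FF and from 388 over 854 to 1139.7 in RES, and 7 RES sows lay above all FF sows. The log2 fold change was 0.58 (SE 0.15, edgeR adjusted p = 0.00922). In the upper quality set alone it was 0.59 and not called (edgeR adjusted p = 0.0561). The difference between subunits was not tested.

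In the spindle checkpoint, 3 of 4 genes were called and the values fell into a higher and a lower pair. BUB1B (ENSSSCG00000004782, chr1:131093026-131143840), the kinase-like protein BUBR1 of the mitotic checkpoint complex, had a median of 1012 normalized counts in FF (318 to 1951) and of 2681 in RES (1004 to 3845). Apart from RES sow 7, whose 1004 lay just under the FF median, all RES sows lay above that median and 11 lay above every FF sow. The log2 fold change was 1.10 (SE 0.22, edgeR adjusted p = 0.00194). MAD2L1, which closes around CDC20 to block the anaphase-promoting complex, had a log2 fold change of 1.02 (SE 0.22).

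BUB3 (ENSSSCG00000010726, chr14:132703088-132715353), the adaptor that places BUB1B on the kinetochore and that is also expressed outside mitosis, had the smallest fold change of the 48 genes. It ran from 488 over 651 to 945 in FF and from 505 over 863 to 1507 in RES. The groups overlapped widely, with 5 RES sows above all FF sows. BUB3 had a log2 fold change of 0.37 (SE 0.12, edgeR adjusted p = 0.0374), and the call was lost in 11 of the 27 fits that leave out 1 library, where the adjusted p reached 0.0751. It was also lost with the replicate block (edgeR adjusted p = 0.0796), with RIN as a covariate (0.0515), without RES sows 3 and 5 (0.0559) and in the lower quality set alone (0.639). ZWINT (ENSSSCG00000027984, chr14:94094781-94109447), which links the KNL1 scaffold to the checkpoint proteins, was not called. It ran from 166 over 309.6 to 675 in FF and from 334 over 508 to 710.2 in RES. All 14 RES sows lay above the FF median, but only 1 lay above every FF sow because FF sows 3 and 11 were as high as the RES sows. Its log2 fold change was 0.50 (SE 0.18, edgeR adjusted p = 0.0599). ZWINT was called in 4 of the 27 fits with 1 library left out, with an adjusted p of 0.0141 without FF sow 3, 0.0173 without FF sow 11, 0.0376 without RES sow 7 and 0.0437 without RES sow 10. In the other 23 fits the adjusted p reached 0.0973. ZWINT was also called by DESeq2 (0.0417), with DESeq2's size factors in edgeR (0.0437), with all identifiers (0.0491), with the replicate block (0.0305) and with voom and sample quality weights (0.0149).

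The chromosomal passenger and CDCA genes had the highest group median, 1.28, and all 5 were called. BIRC5 (ENSSSCG00000040486, chr12:3747276-3755214), the passenger subunit survivin, had a median of 117 normalized counts in FF (24.0 to 243) and of 319.9 in RES (108 to 613). Of the RES sows, 12 lay above every FF sow. Its level was 2.70-fold higher (log2 fold change 1.44, SE 0.27, edgeR adjusted p = 0.00194). CDCA8, the passenger subunit borealin, had a log2 fold change of 1.19 (SE 0.24), again with 12 RES sows above every FF sow. CDCA2, which recruits protein phosphatase 1 to anaphase chromatin, was at 1.28 (SE 0.23), and CDCA3, a trigger of mitotic entry, at 1.37 (SE 0.26).

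INCENP (ENSSSCG00000013066, chr2:9411942-9445825), the scaffold of the passenger complex that activates Aurora B, had the smallest change of this group. Its median count was 74.3 in FF (27.9 to 176) and 141 in RES (71.9 to 209.7). Only 3 RES sows lay above all FF sows, and the highest FF value belonged to FF sow 10. The log2 fold change of INCENP was 0.86 (SE 0.23, edgeR adjusted p = 0.0111), and 1.05 without that sow.

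**Figure D2:**
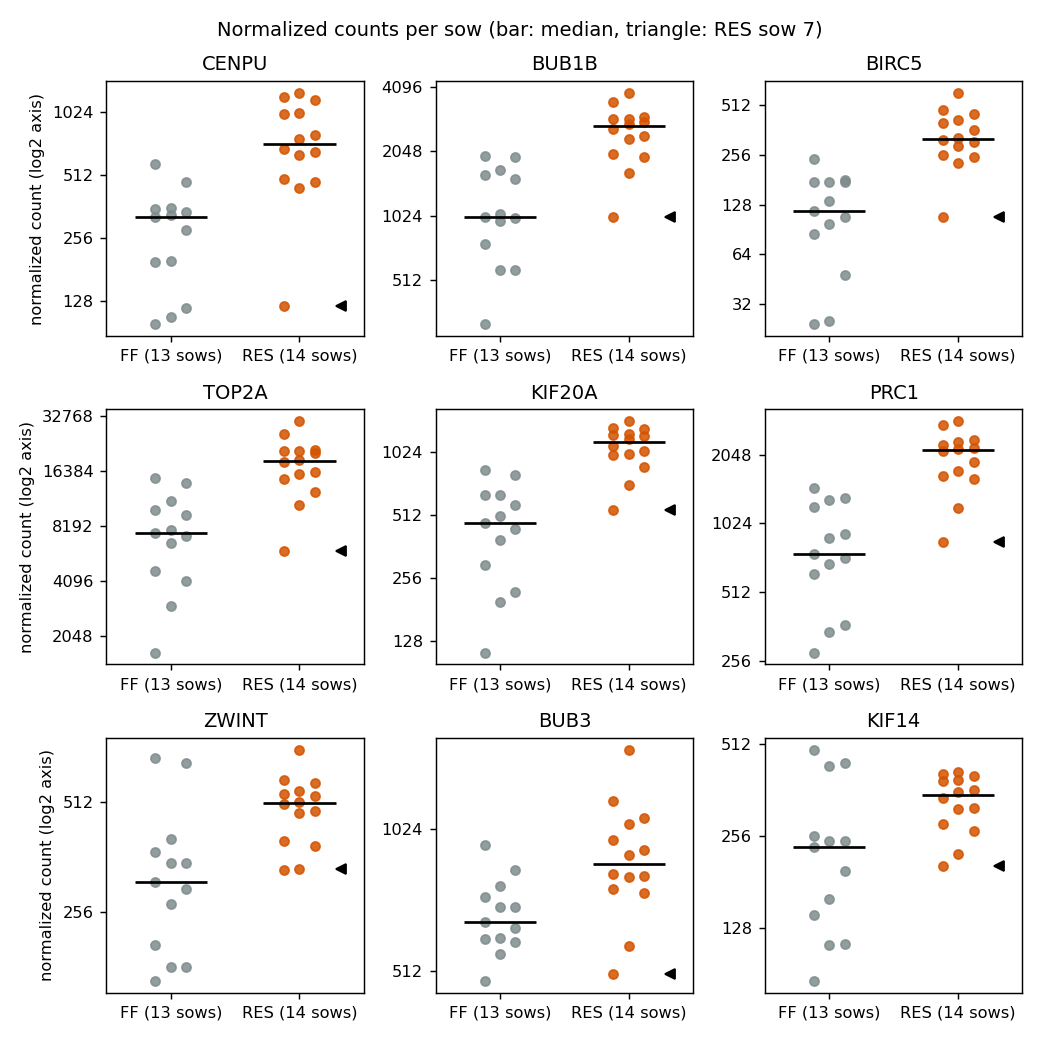
Normalized counts (vertical axes, log2 scale) of 9 genes in the 13 FF and 14 RES sows, 1 point per sow, with a bar at the median and a triangle beside RES sow 7. In the upper 6 panels most RES sows lie above the FF sows, while in the panels of ZWINT, BUB3 and KIF14 the groups overlap over most of their range.

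All 10 measured genes of condensin, cohesion and chromatid separation were called, with log2 fold changes of 0.84 to 1.23 (median 1.10). SGO2 (ENSSSCG00000016092, chr15:104099378-104150723), a shugoshin that shields centromeric cohesin, led the group. It ran from 347 over 1370.3 to 2546 in FF and from 1333 over 3390.0 to 5178 in RES, and 11 RES sows lay above all FF sows. Its log2 fold change was 1.23 (SE 0.23, edgeR adjusted p = 0.00194), and that of its relative SGO1 was 1.16 (SE 0.23). TOP2A, the topoisomerase that untangles sister DNA, had a median of 7481 normalized counts in FF (1655 to 15023) and of 18558 in RES (5946 to 30702). Its log2 fold change was 1.15 (SE 0.25, edgeR adjusted p = 0.00322).

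Within condensin I, the non-SMC subunits NCAPG and NCAPH had log2 fold changes of 1.20 (SE 0.23) and 1.16 (SE 0.22) and NCAPD2 0.90 (SE 0.20). The SMC ATPases SMC2 and SMC4, which condensin I shares with condensin II, were at 0.89 (SE 0.18) and 0.99 (SE 0.17). ESPL1, the separase that cuts cohesin, was at 1.04 (SE 0.24). CDCA5 (ENSSSCG00000013008, chr2:7103648-7112772), the sororin that keeps cohesin closed on DNA, had the smallest change of the group. It ran from 37.3 over 109 to 323 in FF and from 57.9 over 236 to 314 in RES. No RES sow exceeded the highest FF sow, again FF sow 10, although 13 of 14 lay above the FF median. Its log2 fold change was 0.84 (SE 0.27, edgeR adjusted p = 0.0374). The call for CDCA5 was lost in 13 of the 27 fits with 1 library left out, where the adjusted p reached 0.0651. Among other alternatives, it was lost in the lower quality set alone (edgeR adjusted p = 0.815). Without FF sow 10 the log2 fold change was 1.09 (edgeR adjusted p = 0.00347).

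Among the mitotic kinesins 8 of 9 were called. KIF4A (ENSSSCG00000012377, chrX:56319453-56447560), a chromosome-bound kinesin that also sets the length of the central spindle, had a median of 955 normalized counts in FF (298 to 1781) and of 2425 in RES (793 to 3826). Of the RES sows, 11 exceeded every FF sow, and the log2 fold change was 1.26 (SE 0.23, edgeR adjusted p = 0.00194). KIF15 and KIF11, both of which push spindle poles apart, had log2 fold changes of 1.25 (SE 0.25) and 1.11 (SE 0.23). KIF18A, which dampens chromosome oscillation, was at 1.15 (SE 0.22), and KIF2C, a microtubule depolymerase of the centromere, at 1.04 (SE 0.25). The cytokinesis motors KIF20A, KIF23 and KIF20B were at 1.16 (SE 0.22), 1.14 (SE 0.21) and 1.03 (SE 0.19).

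KIF14 (ENSSSCG00000010912, chr10:23123379-23177919), a midbody kinesin that binds PRC1 and citron kinase, stood apart from the other kinesins. Its counts ran from 85.5 over 235 to 492 in FF and from 205 over 350.0 to 417 in RES. No RES sow lay above the highest FF sow, FF sow 12. KIF14 had a log2 fold change of 0.41 (SE 0.21, edgeR adjusted p = 0.181) and was called in 0 of the 27 fits with 1 library left out. With voom and sample quality weights it was called, at a log2 fold change of 0.64 (limma adjusted p = 0.0198).

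All 7 spindle and cytokinesis genes were called within a narrow range, 0.98 to 1.21 (median 1.09). PRC1 (ENSSSCG00000037307, chr7:55869749-55900640), which bundles the antiparallel microtubules of the central spindle, had a median of 755 normalized counts in FF (278 to 1458) and of 2137 in RES (848 to 2868). All 14 RES sows lay above the FF median and 12 lay above every FF sow. PRC1 had a log2 fold change of 1.21 (SE 0.22, edgeR adjusted p = 0.00183). RACGAP1, which with KIF23 forms centralspindlin, was at 1.13 (SE 0.23), and ANLN, the anillin of the cleavage furrow, at 1.06 (SE 0.21), with 9 FF sows below every RES sow. TPX2, which activates Aurora A on the spindle, ASPM, a spindle pole protein, and NUSAP1, a microtubule bundler near chromosomes, were at 1.10 (SE 0.23), 1.09 (SE 0.25) and 1.03 (SE 0.19). ECT2 (ENSSSCG00000035746, chr13:111248215-111310746), the exchange factor that turns on RhoA at the division plane, had the smallest value of the group. It ran from 401 over 1077 to 2288 in FF and from 899 over 2446 to 3992 in RES, where 8 sows lay above all FF sows. The log2 fold change of ECT2 was 0.98 (SE 0.21, edgeR adjusted p = 0.00295).

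Per kilobase of the longest RefSeq transcript, the levels of the 48 genes spanned a wide range in both groups. TOP2A was highest, with a mean of 1376 normalized counts per kb in FF and 3171 in RES, followed by SMC2 with 908 and 1738, CENPF with 526 and 1189, and CENPE with 478 and 1162. ESPL1 was lowest, with 9.40 and 20.05, below INCENP with 13.6 and 25.7 and KIF2C with 18.9 and 40.3. Exons of 11 of the 50 genes overlap a gene on the opposite strand in RefSeq. Besides CENPU, they include SMC4 (TRIM59), CDCA8 (EPHA10), NCAPG (LCORL), KIF18A (METTL15), KIF20A (CDC23) and NUSAP1 (OIP5). The others are PRC1, KIF23, NCAPD2 and CENPH, which overlap loci without a gene name. The counts of all these genes are uncertain for the same reason as that of CENPU.

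The genes moved together from sow to sow. As a summary, each sow was given the median over the 48 genes of its log2 value minus the FF mean. This median ran from -1.52 to 0.97 in FF (SD 0.73, n = 13) and from -0.01 to 1.92 in RES (SD 0.52, n = 14). FF sow 2 was the lowest and had the lowest FF value of 42 of the 48 genes, and FF sows 3 and 4 were the highest at 0.97 and 0.95. The range within FF, 2.49, was larger than the difference of the group means, 1.25. In RES, 10 of 14 sows had a median above every FF sow. RES sow 7, at -0.01, lay near the middle of the FF sows and had the lowest RES value of 47 of the 48 genes, and RES sow 10 was next at 0.62. RES sow 1 was the highest at 1.92. In 11 of 14 RES sows all 48 genes lay above their FF median, and FF sows exceeded the RES median in at most 3 genes. Without RES sow 7, edgeR called 47 of the 48 genes with a median log2 fold change of 1.18.

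**Figure D3:**
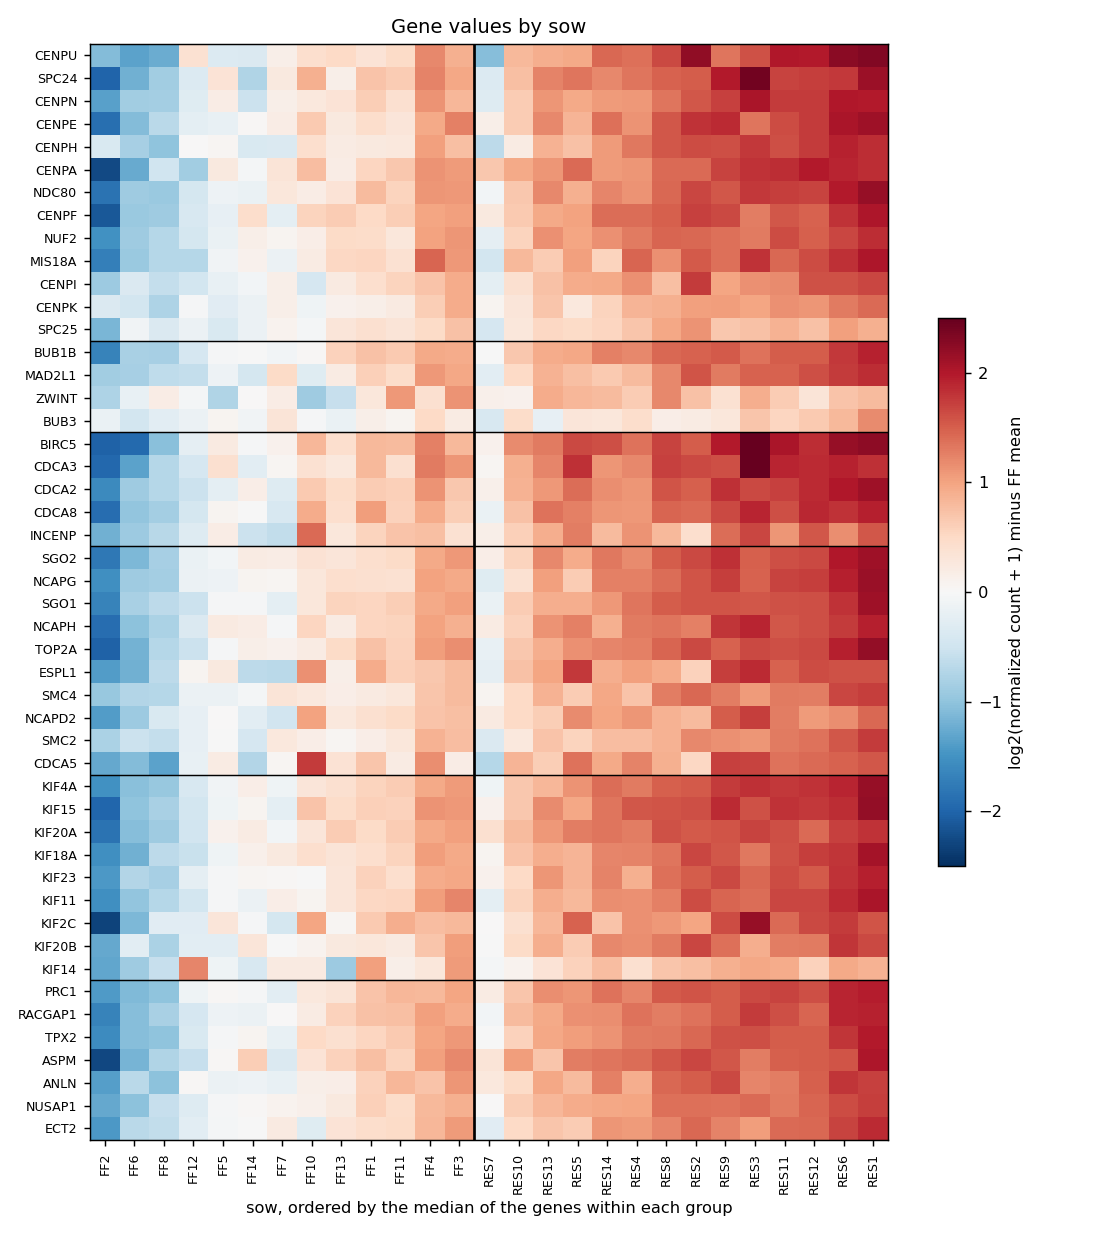
Log2 of the normalized count plus 1 minus the FF mean (colour) of the 48 genes (rows, by group) in the 27 sows (columns, ordered within FF and RES by the median over the genes). Columns are nearly uniform in colour from top to bottom, FF sow 2 is the lowest column and RES sow 7 the only RES column near the FF mean.

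Co-expression was described separately within FF and within RES, so that the diet difference does not enter. Over the 1128 pairs of the 48 genes, the median of Pearson's r across sows was 0.90 in FF and 0.86 in RES, and 94.2% and 92.4% of pairs were above 0.5. Over all 64803420 pairs of the genes tested, the median was -0.0015 in FF and 0.0084 in RES, with 9.81% and 10.6% above 0.5. The points of each correlation share the library and its size factor. Spindle and cytokinesis genes were the tightest group, with a median r of 0.94 in FF and 0.92 in RES, and correlated as closely with the kinesins, at 0.94 and 0.92. Checkpoint genes were the loosest, at 0.68 and 0.55. A gene's median r with the other 47 reached 0.95 in FF and 0.94 in RES, and the lowest were 0.48 for KIF14 in FF and 0.30 for ZWINT in RES. ZWINT had an r above 0.5 with 33 of the other 47 genes in FF and with 2 in RES. KIF14 did so with 16 in FF and with 46 in RES. In FF, its highest value, 492, was in FF sow 12, whose median over the 48 genes was -0.32. FF sow 13, with a median of 0.30, had 113. Whether these counts differ between FF and RES was not tested.

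**Figure D4:**
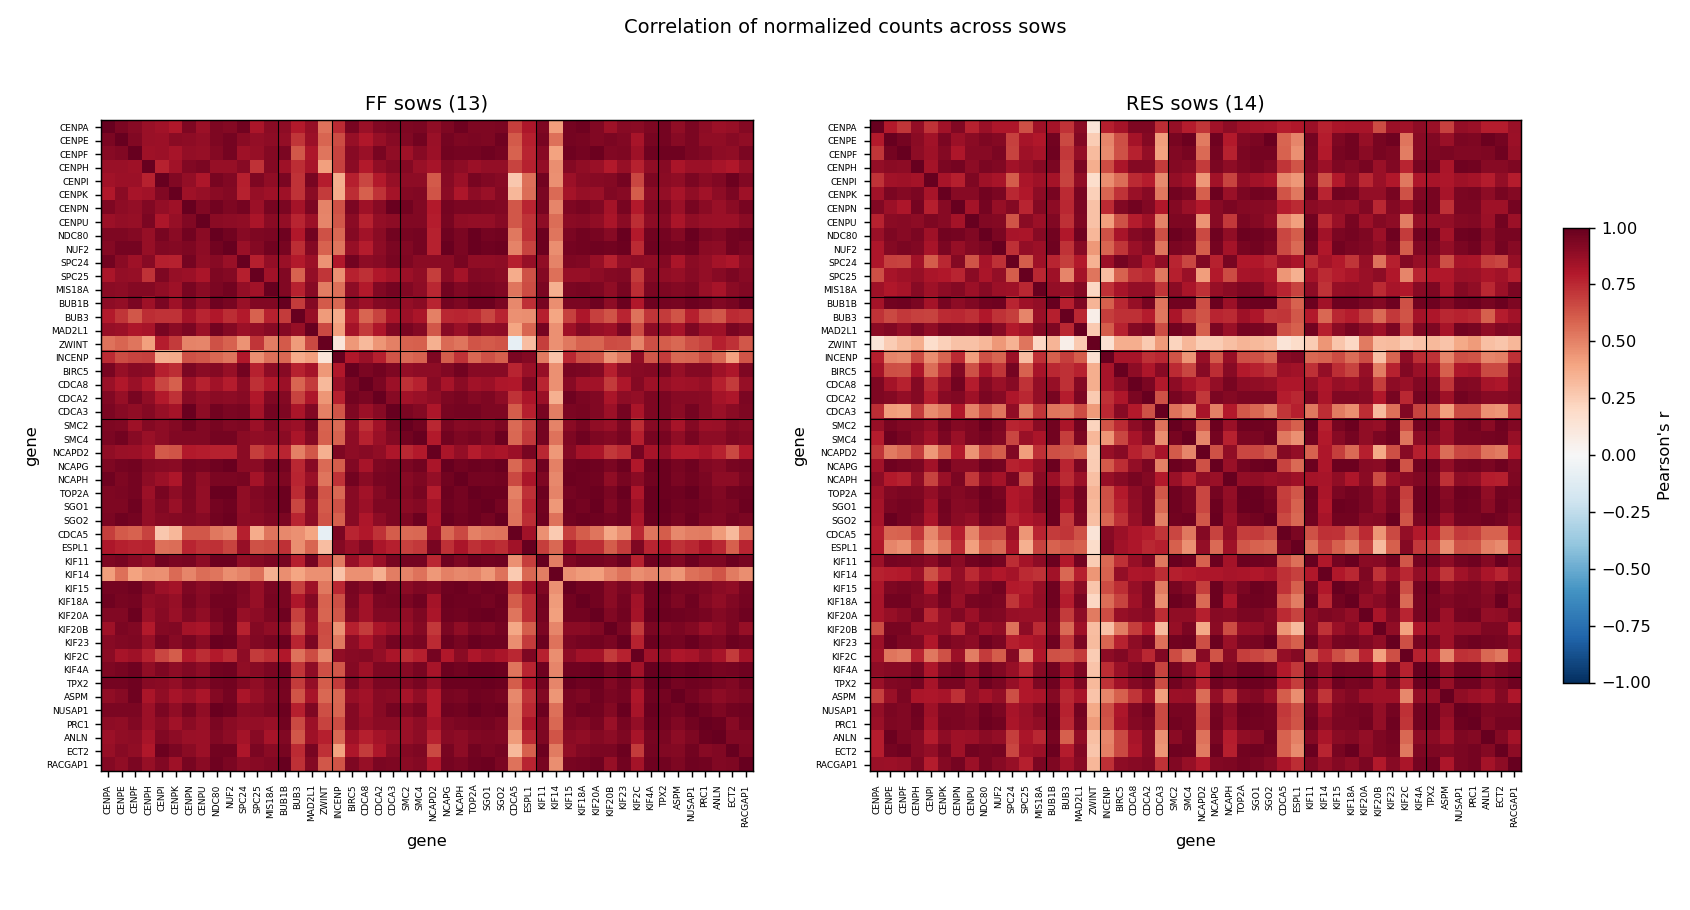
Pearson's r of normalized counts (colour) between all pairs of the 48 genes (both axes, in the same order, lines between the 6 groups) across the 13 FF sows on the left and the 14 RES sows on the right. ZWINT stands out as a pale stripe in both panels and KIF14 and CDCA5 in FF.

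For 14 pairs of genes whose proteins act in one complex or step, the correlation was tested with 100000 permutations and adjusted over the 28 tests. All 14 pairs passed in FF, where r lay between 0.70 and 0.97 with a median of 0.94. All 14 also passed in RES, where r lay between 0.61 and 0.97 with a median of 0.92. Over all 1128 pairs of the list, the median r was 0.90 in FF and 0.86 in RES. Of those pairs, 94.2% in FF and 92.4% in RES had an r above 0.5. The permutation test was not run on the other pairs, so passing does not set the 14 pairs apart from the list. PRC1 and KIF4A, which act together on the central spindle, had r = 0.97 and Spearman's rho = 0.98 in FF (permutation p = 1e-05 for both, the smallest that these permutations can give, adjusted p = 1.6e-05). In RES the pair had r = 0.97 and rho = 0.97. The partners in centralspindlin, KIF23 and RACGAP1, had r = 0.97 in FF and 0.91 in RES, and NDC80 and NUF2 0.97 and 0.94. SPC24 and SPC25 were looser, with r = 0.78 and rho = 0.77 in FF (permutation p = 0.00173 and 0.00276, adjusted p of r 0.00186) and r = 0.61 and rho = 0.68 in RES (permutation p = 0.0238 and 0.00847, adjusted p of r 0.0238). BUB1B and BUB3 were at r = 0.70 in FF and 0.78 in RES.

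After leaving out the 2 sows farthest from the median of the first gene, r was 0.51 to 0.97 in FF and 0.50 to 0.94 in RES. Within the read quality groups defined below, r of the 14 pairs was 0.74 to 0.99 and 0.45 to 0.97 in FF, and 0.65 to 0.98 and 0.55 to 0.97 in RES, for the upper and the lower group. The difference of r between RES and FF was tested by permuting the diet labels, and 0 of 14 pairs passed, with 0 at an unadjusted p under 0.05. The largest differences were -0.17 for SPC24 and SPC25 (permutation p = 0.479) and 0.10 for CENPH and CENPK (permutation p = 0.119), with an adjusted p of 0.953 for both.

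The libraries fall into 2 sets by the share of bases of high call quality in the study's read statistics, with 7 FF and 7 RES sows in the upper set and 6 FF and 7 RES sows in the lower. No sequencing batch is stated. In the upper set edgeR called 45 of the 48 genes, all but SPC25, ZWINT and KIF14, as higher in RES, beside 9.84% of all genes called higher, and their median log2 fold change was 1.24. In the lower set the median was 1.02 and all 48 values were again positive, from 0.19 to 1.39. No gene of the 48 was called there by edgeR, beside 0.00878% of all genes (1 gene), and 43 of 48 had an unadjusted p under 0.05, beside 7.16% of all genes that were higher at that p. The adjusted p values ranged from 0.115 to 0.824.

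A test of the diet by quality interaction called 0 of the 48 genes and 0 of all genes by edgeR, with 1 of the 48, ZWINT, at an unadjusted p under 0.05, beside 12.3% of all genes. ZWINT had a log2 fold change of 0.10 (SE 0.24) in the upper set and 1.00 (SE 0.20) in the lower, the reverse of most of the list, and the interaction had an unadjusted p of 0.00998 (adjusted p = 0.299, edgeR). Conversely CDCA5 was at 1.35 (SE 0.30) and 0.31 (SE 0.40), and INCENP at 1.23 (SE 0.29) and 0.48 (SE 0.31). FF sows 3 and 11, the highest FF sows for ZWINT, are in the upper set. FF sow 10, the highest FF sow for CDCA5 and INCENP and the lowest for ZWINT, is in the lower set. Its entry in the read statistics is uncertain. The labels name FF sow 9 as left out for a low RIN, while the supplement lists entries for both sows and the lower RIN for FF sow 10. With the entry of FF sow 9 it would be in the upper set, and the difference between the sets (lower minus upper, log2) would go from -1.04 to -0.18 for CDCA5, from -0.75 to -0.09 for INCENP and from 0.90 to 0.71 for ZWINT.

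**Figure D5:**
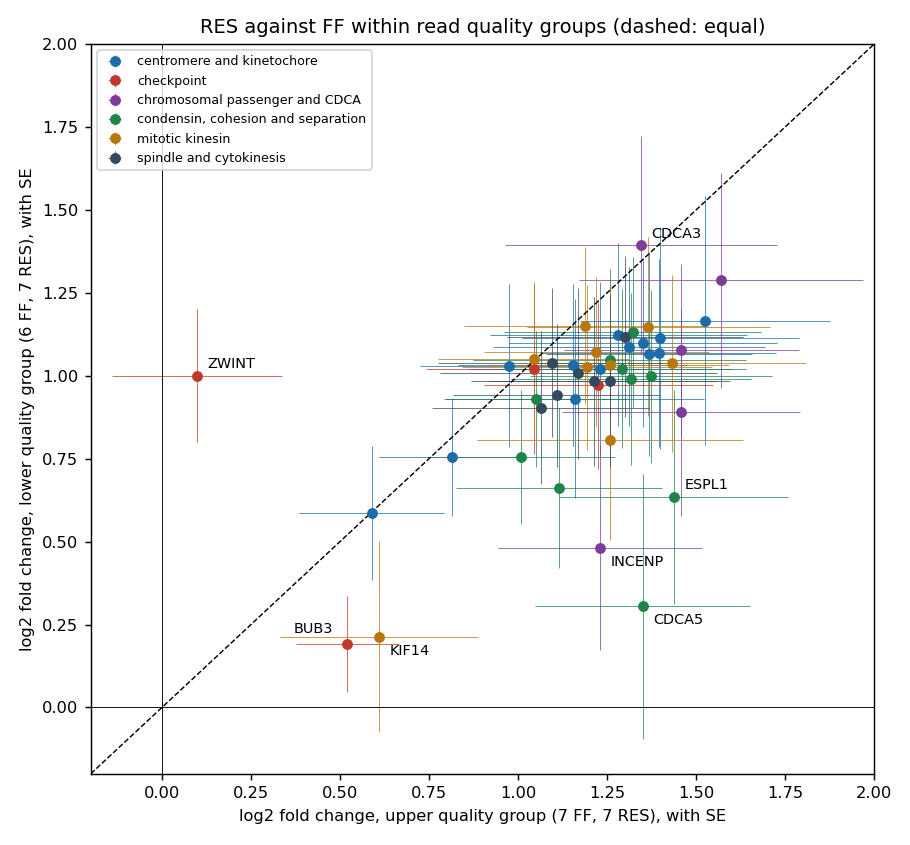
Log2 fold change of RES against FF with its standard error in the lower quality set (vertical axis) against the upper set (horizontal axis), 1 point per gene, coloured by group, with a dashed line of equality. All points lie above 0 on both axes, 44 of 48 lie below the line, and ZWINT lies far above it.

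Other genes of chromosome segregation, taken from lists by function, were compared with the 48. Of 85 such genes 79 were tested, 52 were called higher and 0 were called lower, beside 8.28% of all genes called higher. Of the other centromere and kinetochore genes 18 of 21 rose, with a median log2 fold change of 0.72. Their highest value was 1.25 (SE 0.23) for SPDL1, which recruits dynein to kinetochores, and their lowest 0.01 (SE 0.09, edgeR adjusted p = 0.939) for MIS12, the core of the complex that joins the outer to the inner kinetochore. All 8 other checkpoint genes had a positive fold change and 7 were called higher (median 0.82). Values ran from 0.13 (SE 0.26, not called) for MAD1L1, the partner of MAD2L1, to 1.09 (SE 0.23) for the checkpoint kinase TTK. All 16 other spindle and cytokinesis genes had a positive fold change and 13 were called higher (median 1.04). Values ran from 0.11 (SE 0.07, not called) for KIF2A to 1.33 (SE 0.24) for SPAG5, a spindle and kinetochore protein.

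Further lists held genes whose products also work outside mitosis. Of the 11 cohesin core, loader and release genes 8 had a positive fold change and 4 were called higher (median 0.20). The highest was RAD21, the subunit that separase cuts, at 0.54 (SE 0.10, edgeR adjusted p = 0.00194). The lowest was MAU2, a loader, at -0.13 (SE 0.07, not called). Of the 20 genes for microtubule nucleation and general spindle function 15 had a positive fold change and 8 were called higher (median 0.31). Values ran from -0.25 (SE 0.10, not called) for CLIP1, a plus-end tracker, to 0.81 (SE 0.18) for the augmin subunit HAUS1. Of 3 condensin II genes NCAPG2, at 0.93 (SE 0.20), and NCAPD3 were called higher, and NCAPH2 was at 0.13 (SE 0.26, not called). The difference between these lists and the 48 genes was not tested.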

How the data were processed

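The authors made 1 table of whole-number counts per library. Per the study's methods and the submitters' processing notes, reads were aligned to Sscrofa11.1 with HISAT2 2.2.1, PCR copies were removed with UMI-tools 1.1.4, and read pairs were counted on exons with featureCounts 1.6.2 without a strand option. No scaling was applied to the deposited counts, which cover 35670 Ensembl identifiers.

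A minimum mean count of 5 left 17467 identifiers, of which 11422 had a symbol, and 11385 were tested after 37 small RNA symbols were left out. RES was compared with FF with edgeR 4.0.16 (TMM, quasi-likelihood test, R 4.3.3) on all 27 libraries, with p-values adjusted by Benjamini-Hochberg and genes called when the adjusted p was under 0.05. The study used DESeq2, which (version 1.42.0) gave the size factors and an alternative test here. The p-values measure the spread between sows, 1 follicle each. Correlations used Python 3.11.15, numpy 2.4.6 and scipy 1.17.1, pandas 2.3.3 and matplotlib 3.10.9 the tables and figures, and limma 3.58.1 the voom alternative. The edgeR and permutation steps were tested on simulated data. Positions, transcripts and promoter windows are from RefSeq Sscrofa11.1, matched by symbol for all 50 genes. The sequence of 1 window is not reported here.

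The genes, lists, pairs and tests were chosen with earlier results of these data known. All 50 genes are accounted for. Values are given in full for the largest and smallest fold change of each group, for genes not called and for genes whose call was lost when a library was left out, and examples of the rest were chosen with their values known. The alternatives were other tools, scalings and filters, a replicate block, quality and RIN covariates, quality sets alone, and leaving out libraries.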

Additional observations from a re-analysis of the deposited data

How the results depend on the processing

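The number of the 48 genes called, 46, was 44 to 47 in the fits that omit 1 library and their median log2 fold change was then 1.03 to 1.22. It was 47 with DESeq2's Wald test, with DESeq2's size factors in edgeR and with all identifiers, 46 with filterByExpr, without a count filter and with the quality set as a covariate, 45 with RIN as a covariate (the RIN of FF sow 10 is uncertain too) and in the upper quality set alone, 44 without RES sows 3 and 5, and 48 with voom and sample quality weights. In the lower quality set alone it was 0, with 13 libraries and the same direction in all 48 genes. With the replicate block it was 46 (ZWINT then had an adjusted p of 0.0305 and BUB3 0.0796, edgeR), although the shared replicate numbers do not pair the sows: the correlation of same-numbered sows was -0.24 to 0.31 (median 0.01), 0 FF sows were closest to their own number, and over all genes 1082 instead of 1609 were called. With the other read statistics entry for FF sow 10, the interaction again called 0 genes. The number of correlated pairs was 14 in FF and 13 to 14 in RES with 1 library omitted, and 13 to 14 in FF and 12 to 14 in RES under the other alternatives. None of the fold changes of the 13 genes chosen by the stated rule changed sign in any alternative run. The lowest value of the list was 8.65 normalized counts, for KIF2C in FF sow 2, and KIF2C was called in all 27 fits that omit 1 library. The part of depth in the other calls was not tested.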

Other observations

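INCENP, NCAPD2, CDCA5, ESPL1 and KIF2C, singled out after their values were seen, had their highest FF value in FF sow 10. In RES, whose sows were not used to pick them, these 5 genes had a median r of 0.91 among themselves (0.87 to 0.94). With the other genes of the list the median was 0.64, but some of these were about as close. In RES, r with the 5 genes was 0.82 to 0.93 for BIRC5, 0.82 to 0.92 for SPC24 and 0.85 to 0.91 for NCAPH. For CDCA3 it was 0.72 to 0.93. The closeness was therefore not particular to the 5 genes. The longest RefSeq transcripts of the 5 are rich in G and C, at 57.2% for INCENP, 54.5% for NCAPD2, 53.9% for CDCA5, 59.0% for ESPL1 and 54.6% for KIF2C. The list runs from 33.2% to 59.0% with a median of 43.1%. BIRC5 at 58.2%, SPC24 at 56.5% and CDCA3 at 54.3% are as rich in G and C, and their highest FF value was in FF sow 4.

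Across the 48 genes, the percentage of G and C was set against a sow's deviation from its group mean (log2, after removing the sow's median over the genes). Pearson's r ran from -0.74 to 0.78 over the 27 sows and was within 0.3 of 0 in 11 of them. At the ends of the range it was 0.78 in RES sow 3, 0.77 in RES sow 5, 0.69 in FF sow 10, 0.68 in FF sow 5 and 0.64 in FF sow 1, and -0.74 in RES sow 2, -0.56 in FF sow 6 and -0.47 in both RES sow 8 and FF sow 7. In RES sow 7 it was -0.07. The genes share the library and are not independent. Across the same genes, the percentage of G and C had r = 0.11 with the log2 fold change of RES against FF, 0.33 with that in the upper quality set and -0.19 with that in the lower. The part of base composition in the differences between genes was not tested.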
